A study of Drosophila melanogaster with 3 samples.

Results

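Internal alternative promoters are the start sites from which a gene begins a shorter transcript, downstream of its 5'-most start. The regions described here are the binding summits of the tagged protein Coop that lay at such sites. A summit, the base of highest signal in a peak, was a member when its nearest protein-coding transcription start site lay within 500 bp and at least 1000 bp downstream of the 5'-most start site of the same gene. It was left out when a start site of another gene on the opposite strand lay within 1000 bp upstream of that start site. The rule kept 501 of 6626 peaks (7.56%), or 18.7% of the 2683 summits at promoters. They belonged to 402 genes. Another 1316 summits lay at unidirectional first promoters, a class that also takes start sites less than 1000 bp from the 5'-most one, and 866 lay at divergent promoters.

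The data were ChIP-seq peak lists from whole prepupae of Drosophila melanogaster, males and females pooled, aged 24 h. The single group was 1 transgenic line that stably expresses Coop (CG1621) with eGFP joined to its C-terminal end, with 3 biological replicates and no other condition or untagged line in the files used. Chromatin had been sonicated to 200 to 800 bp. The free text of each label calls the library an input control while its assay title and antibody entry, and the deposited notes, describe immunoprecipitation against a separate control, and all values rest on the latter reading. Whole animals mix all cell types, so a peak may come from a fraction of the cells, and no RNA or initiation data were used, so whether a start site was active in these animals was not tested.

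An alternative promoter can change the first exon of a transcript and with it the protein's N-terminus or the 5' untranslated region, and can place a gene under other tissue or stage controls. Coop belongs to the family of proteins with MADF and BESS domains and is known as a partner of the Wingless pathway factor Pangolin that represses its targets. Fly promoters differ in their sequence elements. GAGA repeats are bound by the GAGA factor, product of Trl, which opens chromatin at regulated and paused genes. The DRE is bound by Dref and Motif 1 by M1BP, mostly at promoters of broadly used genes.

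The stretches at the strongest members show how varied these sites were. Each is 121 bp of the release 6 genome (dm6), read 5' to 3' along the gene, at 1 of the strongest members that were found in all 3 replicates and whose stretch overlapped no annotated exon. The summit is base 75 in NFAT, where the stretch ends just before the start site, and base 61 in the others. Capitals mark any of the 12 motif words searched, or the added word CACAGTG described later. NFAT lies at chrX:13642054-13642174 on the plus strand, COX7AL2 at chr2L:2193413-2193533 on the minus strand, larp at chr3R:28326540-28326660 on the minus strand, ph-p at chrX:2137269-2137389 on the minus strand and Rtnl1 at chr2L:4997610-4997730 on the minus strand.
NFAT: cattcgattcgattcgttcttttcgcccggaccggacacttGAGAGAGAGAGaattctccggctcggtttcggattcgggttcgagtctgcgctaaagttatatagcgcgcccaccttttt
COX7AL2: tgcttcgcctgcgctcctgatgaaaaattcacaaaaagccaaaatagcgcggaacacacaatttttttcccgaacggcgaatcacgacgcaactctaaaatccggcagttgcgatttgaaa
larp: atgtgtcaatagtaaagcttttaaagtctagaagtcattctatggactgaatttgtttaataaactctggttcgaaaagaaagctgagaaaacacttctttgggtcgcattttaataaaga
ph-p: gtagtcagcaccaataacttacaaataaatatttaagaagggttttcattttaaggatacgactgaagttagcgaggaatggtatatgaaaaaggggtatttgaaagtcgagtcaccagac
Rtnl1: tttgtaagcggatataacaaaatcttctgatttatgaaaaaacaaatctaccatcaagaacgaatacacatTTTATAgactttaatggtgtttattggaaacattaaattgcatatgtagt
The NFAT stretch holds a GAGA repeat and the Rtnl1 stretch a TATA box word, while those of COX7AL2, larp and ph-p hold none of the words. The summits of COX7AL2, larp, ph-p and Rtnl1 lay 463, 336, 474 and 289 bp upstream of the start site, so their stretches do not reach it.

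A second set shows the GAGA word GAGAGAG or its complement CTCTCTC, which 18.2% of members held within 100 bp, a larger share than of other promoter summits. These are the next strongest members found in all 3 replicates whose stretch holds it, chosen after values were seen. Syp lies at chr3R:20778644-20778764, jigr1 at chr3R:25648019-25648139, CLIP-190 at chr2L:17389184-17389304 and Ten-a at chrX:12203677-12203797, all on the plus strand. The summit is base 113 in Ten-a and base 61 in the others.
Syp: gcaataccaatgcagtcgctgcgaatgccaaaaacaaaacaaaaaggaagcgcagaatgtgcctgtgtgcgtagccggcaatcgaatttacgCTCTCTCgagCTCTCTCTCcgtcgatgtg
jigr1: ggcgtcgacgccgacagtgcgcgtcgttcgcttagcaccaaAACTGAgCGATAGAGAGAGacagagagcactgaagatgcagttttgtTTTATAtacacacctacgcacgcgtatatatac
CLIP-190: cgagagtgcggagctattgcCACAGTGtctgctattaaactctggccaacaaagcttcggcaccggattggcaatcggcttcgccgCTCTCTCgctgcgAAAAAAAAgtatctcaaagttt
Ten-a: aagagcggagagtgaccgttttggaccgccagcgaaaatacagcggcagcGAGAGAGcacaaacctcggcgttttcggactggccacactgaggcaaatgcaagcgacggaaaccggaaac
The repeat lies downstream of the summit base in Syp and CLIP-190 and upstream of it in jigr1 and Ten-a. The jigr1 stretch also holds the Initiator, CGATA and TATA words, and that of CLIP-190 an A tract and CACAGTG. All of these stretches end upstream of the start site.

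Members were spread over the large arms, 84 of them lying on 2L, 110 on 2R, 98 on arm 3L, 102 on arm 3R and 107 on the X, and none on chromosome 4. Their start sites lay 1001 to 160100 bp from the 5'-most start of the gene, with a median of 5497 bp. The genes had 2 to 16 start sites, with a median of 3. By annotation, 377 summits (75.2%) fell in introns, 103 in 5' untranslated regions, 11 in coding sequence, 8 in non-coding exons and 2 in 3' untranslated regions. The rule places the start site at least 1000 bp inside its gene, so these shares follow in part from the rule. The summits nearest the limits of the rule were those of Pino, 498 bp from its start site, and Pdp1, left out at 503 bp. For the distance between start sites they were ERR, kept at 1001 bp, and Not1, left out at 997 bp.

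The replicates differed in which peaks they held. A peak counted as found in a library if 1 of that library's 6626 strongest regions had its summit no more than 100 bp away. Of all peaks, replicate 1 held 69.5%, replicate 2 held 82.3% and replicate 3 held 78.1%. Of the summits at promoters they held 77.3%, 79.5% and 72.1%, so replicate 1 was lowest over all peaks and replicate 3 at promoters. Applied to those regions, the rule gave 531, 481 and 511 internal promoter summits in replicates 1, 2 and 3, which were 16.4%, 18.6% and 20.7% of all promoter summits (18.6% ± 2.11, SD, n = 3). All 3 lists used 1 control alignment, so an error of the control can recur in each.

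Members were found again in all 3 replicates about as often as other peaks. The share was 265 of 501 (52.9%, exact 95% binomial interval 48.4 to 57.3), beside 48% of all thresholded peaks, 49.8% of first promoter summits and 43.1% of divergent ones. A further 163 members were found in 2 replicates, 66 in 1 and 7 in none. By replicate, 74.3%, 81.8% and 80.8% of members were found, against 78.3%, 77.7% and 74.4% of first promoter summits. The order of the classes differed between replicates, and the mean difference was 2.18 percentage points (exact sign-flip permutation test over 3 replicates, two-sided p = 0.5, the smallest possible being 0.25). No difference between classes can therefore pass 0.05 in this design, and the class differences given here are descriptions of these libraries. Without replicate 3 the difference from first promoters was 0.0424 points. Against divergent promoters the mean difference was 4.995 points (exact sign-flip test, p = 0.75), which turned to −1.17 without replicate 3, where only 63.5% of divergent summits were found.

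The deposited signal is the authors' peak caller's score, used here to rank peaks within a list. It ranged from 171 to 6585 among members, with a median of 301, beside 291 at first promoters, 292 at divergent promoters and 287 over all peaks. The median percentile of signal in the replicate lists was 90.8, 88.6 and 89.9 for members and 91.2, 87.8 and 90.4 for first promoters. The mean difference of −0.0217 percentile points was smaller than its spread (SD 0.744, exact sign-flip test over 3 replicates, p = 1), and its sign changed under several settings.

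The strongest members that were found in all 3 replicates are named here. NFAT encodes a Rel family transcription factor, and its summit of signal 6585 ranked 2 in each replicate list of 30000 regions. COX7AL2, related to subunit 7A of respiratory complex IV, followed with 5534 and ranks 3, 5 and 3. The summit at larp, which encodes an RNA-binding regulator of translation, had a signal of 3789 and ranks 21, 8 and 17. After CG1888 (2755), ph-p, a subunit gene of Polycomb repressive complex 1, had 2536 and ranks 30, 40 and 90. The next were Rtnl1, a reticulon that shapes the endoplasmic reticulum (1920), mrt (1888) and the casein kinase gish (1787). The Wingless pathway kinase sgg, the fly GSK3, had 1745 at ranks 148, 102 and 130. The JNK phosphatase puc had 1733 at ranks 88, 122 and 180.

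The remaining genes of the 25 strongest members found in all 3 replicates had signals of 1179 to 1701. Ptpmeg2, a protein tyrosine phosphatase, appeared with a pair of summits (1701 and 1236). CG8036 (1652) is related to transketolases, PAN3 (1635) encodes a subunit of the PAN2-PAN3 deadenylase and Fhos (1550) a formin that nucleates actin. They also took in papi (1516), a Tudor domain gene of the piRNA pathway, the zinc finger factor chn (1464), CG1607 (1412) and Lpin (1393), a phosphatidate phosphatase. The last were the cAMP phosphodiesterase dnc (1298), the HMG box gene bbx (1296), mtgo (1228), the PDZ domain gene bbg (1221), hng3 (1201) and Gdap2 (1179). Some of these ranked lower in replicate 1, where Gdap2 stood at 1090 against 153 and 358 in replicates 2 and 3, and bbg at 624 against 258 and 209.

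**Figure D1:**
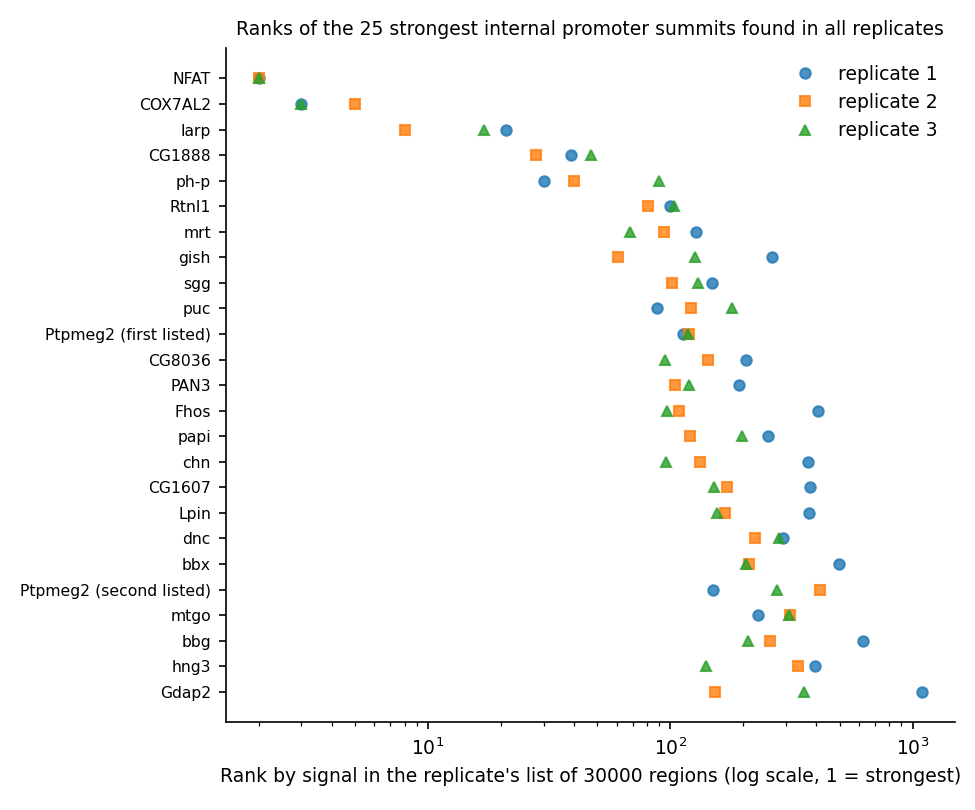
Rank of each of the 25 strongest internal promoter summits found in all 3 replicates (horizontal axis, log scale, 1 is the strongest of 30000 regions), with 1 point per replicate. NFAT sits at rank 2 in all 3 replicates, and Gdap2 at 1090, 153 and 358.

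Some genes held several members, and these share a locus and at times a start site, so the 501 summits stood at 481 clusters of start sites (start sites of 1 gene merged within 200 bp). Of the 402 genes, 324 had 1 member, 64 had 2, 8 had 3, 5 had 4 and 1 had 5. The gene with 5 was Svil, a relative of the actin-binding supervillin, with 16 start sites and signals of 179 to 562. Genes with 4 were jigr1, Ptpmeg2, dnc, the nuclear receptor gene Eip75B and SNF4Agamma, which encodes the gamma subunit of the AMP-activated kinase. In Ptpmeg2 all 4 were found in every replicate, with signals of 1701, 644, 1236 and 613 from the most upstream start site to the most downstream. In Eip75B only the summits of signal 621 and 287 were found in every replicate, and those of 188 and 183 were each found in 1. Genes with 3 were Rtnl1, PAN3, sgg, RapGAP1, the glycolytic genes Pgk and Pfrx, the polarity gene sdt and Trl. In sgg the summits had signals of 174, 1745 and 197, and in Rtnl1 they had 628, 359 and 1920, so 1 summit scored far above the others in each.

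Summits at internal start sites lay further upstream than those at first promoters. Relative to the start site, with negative values upstream, the median was −139 bp for members (quartiles −250 and −4), −34 bp at first promoters and −20 bp at divergent ones. The divergent median is set in part by the rule, because a summit far upstream can be nearest to the start site of the other gene. No divergent summit lay between −500 and −400 bp. Upstream summits made up 76.0% of members and 62.3% of first promoter summits. In the replicate lists the median was −83, −158 and −130 bp for internal summits and −34, −56.5 and −38 bp for first ones. All 3 internal medians lay further upstream than all 3 first medians, and the mean difference was −80.8 ± 28.0 bp (SD, n = 3, exact sign-flip test, p = 0.25, the smallest possible). This comparison was chosen after values were seen.

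**Figure D2:**
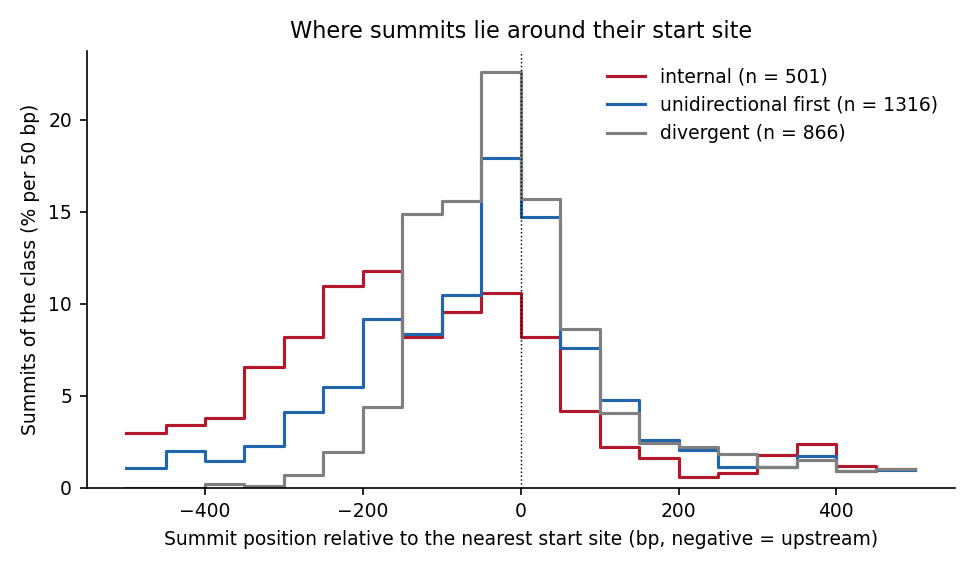
Summits per 50 bp of position relative to the nearest start site (horizontal axis, bp, negative is upstream) as a percentage of each class (vertical axis). First and divergent summits peak in the 50 bp before the start site (17.9% and 22.6%), where internal ones reach 10.6%, and internal summits reach 11.8% between −200 and −150 bp.

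The position did not track the distance along the gene. Members whose start site lay 1000 to 2000, 2000 to 5000, 5000 to 20000 and over 20000 bp from the 5'-most one (107, 131, 145 and 118 members) had median positions of −132, −139, −145 and −132 bp. It also differed little between first promoters of genes that do and do not have an internal start site (−36 bp over 345 summits and −33 bp over 971). Strong members lay further out, with −197 bp for the 100 strongest and −94 bp for the weaker 251 members. Among summits found in all 3 replicates, the medians were −151 bp for internal and −49.5 bp for first promoters. The distance kept by the rule sets this value in part: with a 250 bp limit the mean difference in the replicate lists was −41.2 bp.

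Members carried the GAGA word more often than other promoter summits did, and DRE and Motif 1 less often. Words were searched on both strands within 100 bp on either side of the summit, as plain letters, which are a match and not a site. GAGAGAG stood at 91 members (18.2%, exact 95% interval 14.9 to 21.8), at 8.81% of first promoter summits, at 4.16% of divergent ones and at 6.93% of all peaks. In windows 500 bp upstream and downstream of the members' summits it stood at 6.39% and 6.59%. In the replicate lists 21.3%, 16.4% and 15.9% of internal summits held it (17.9% ± 2.98, SD, n = 3), against 9.11%, 8.25% and 9.51% of first ones (8.96% ± 0.644). Every internal share was above every first share, and the mean difference was 8.89 percentage points (exact sign-flip test over 3 replicates, p = 0.25, the smallest possible).

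DRE, searched as TATCGATA, was found at 4 members (0.798%), beside 2.2% of all peaks, 4.10% of first and 8.66% of divergent promoter summits. Internal summits of the replicate lists held it at 1.13%, 0.832% and 0.783%, against 7.26%, 3.96% and 2.72% of first ones. Motif 1, searched as GGTCACACT, was found at 2 members (0.399%), beside 1.69% of all peaks, 3.72% of first and 5.77% of divergent summits. Its shares in the replicate lists were 0.942%, 0.208% and 0.196% for internal and 7.13%, 3.63% and 2.16% for first promoters. Replicate 1 had the highest share of these words in either class. In both motifs every first share exceeded every internal share, with mean differences of −3.73 and −3.86 points (exact sign-flip test over 3 replicates, p = 0.25 for each).

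All 12 words searched had a difference of the same sign in all 3 replicates and the same p of 0.25, so this test does not rank them. The TATA box word TATAAA stood at 20.0% of members, beside 20.8% of first promoter summits and 25.4% of all peaks. The Initiator word TCAGTT stood at 16.4%, beside 15.8% and 13.9%. The CGATA core, a part of DRE, stood at 24.6%, beside 30.2% and 24.3%. The TCF core CTTTGAT, the core of the sequence bound by Pangolin, stood at 15 members (2.99%), beside 2.20% and 2.90%. The A tract (AAAAAAAA) stood at 12.97% of members, beside 10.1% and 14.2%, and the CA repeat (CACACACA) at 9.78%, beside 7.67% and 6.64%. The E-box CACGTG (1.40%), the DPE word GGACGTG (0.599%) and the Zelda word CAGGTAG (0.399%) stood at few members, beside 2.89%, 2.43% and 1.37% of first promoter summits and 2.25%, 1.31% and 0.951% of all peaks. None of the words was found at 142 members, a count for which no share over other peaks is given here. It is therefore not read as particular to members.

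**Figure D3:**
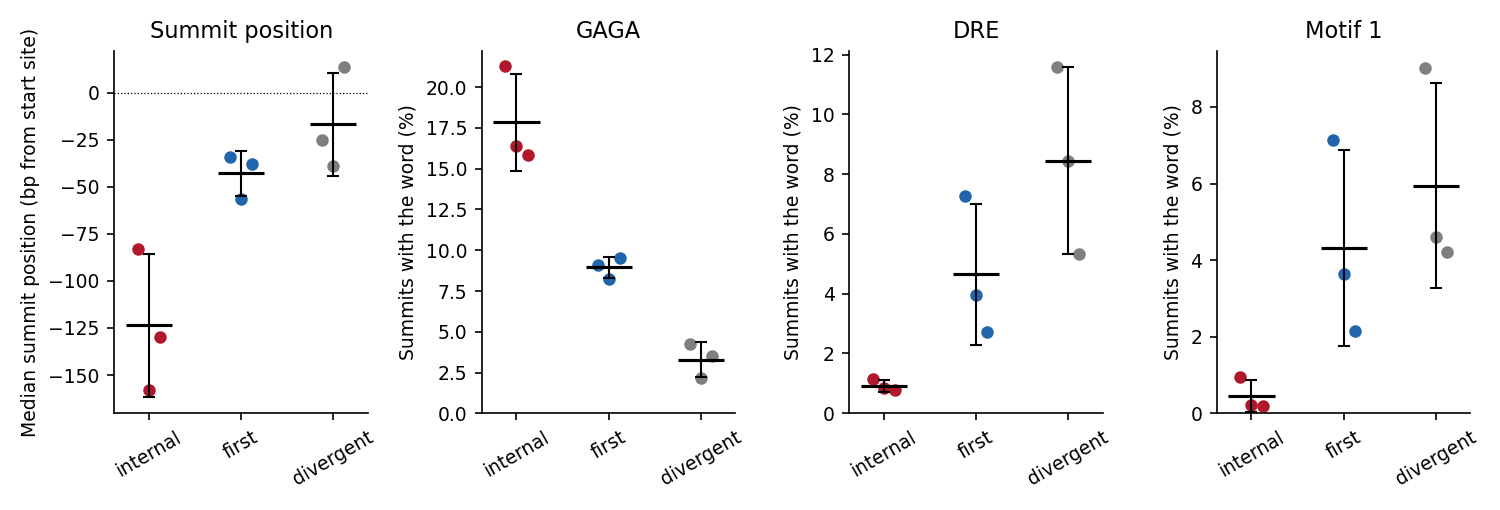
Median summit position (left, bp from the start site) and percentage of summits with the GAGA, DRE and Motif 1 words (other panels) in each promoter class. Points are the 3 replicate lists in order, the long bar is their mean and the error bar their SD; internal GAGA shares of 15.9% to 21.3% lie above first shares of 8.25% to 9.51%.

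GAGA words were also frequent at internal start sites that no summit reached. Windows of the same length were centred −139 bp from every cluster of start sites. This is the median position of members, whereas that of first promoter summits was −34 bp. In these windows the word stood at 28.9% of 481 internal clusters with a summit and at 11.5% of 2226 without. At first promoters the shares were 14.6% of 1261 clusters with a summit and 5.30% of 8759 without, and 6.56% over all 18342 clusters. Internal clusters thus exceeded first ones with and without a summit, and clusters with a summit exceeded those without in either class. DRE and Motif 1 were rarer at internal than at first clusters, also without a summit. With a summit, DRE stood at 0.624% of internal and 4.52% of first clusters, and without at 1.03% and 2.68%. For Motif 1 the shares were 0.832% and 2.14% with a summit, and 0.135% and 0.651% without. The members with and without a GAGA word were alike in signal (median 305 and 299) and in the share found in all 3 replicates (54.9% and 52.4%). Their median positions were −101 and −155 bp.

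The words did not peak at the summit itself. Counting overlapping matches separately, they were densest 100 to 150 bp on the upstream side of member summits, at 172 per 1000 summits per 50 bp. The profile was uneven near the summit. The density was 114 in the 50 bp before it, 81.8 from the summit to 50 bp downstream and 124 from 50 to 100 bp downstream. At first promoters the highest density, 91.2, lay in the same bin.

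**Figure D4:**
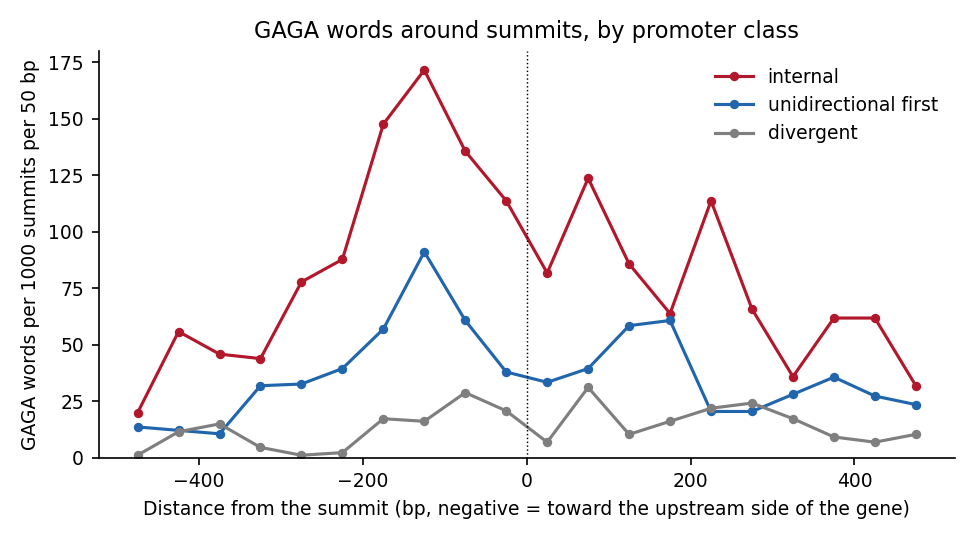
GAGA words per 1000 summits in bins of 50 bp (vertical axis) by distance from the summit (horizontal axis, bp, negative toward the upstream side of the gene) in each class. Internal summits reach 172 and first ones 91.2 in the bin from −150 to −100 bp, while divergent ones stay at or below 31.2.

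Base composition and a further word differed between strong and weak members. Mean GC content within 100 bp of the summit was 39.1% in the 100 strongest members, 44.4% in the next 150 and 45.4% in the rest, with SDs over members of 8.26, 9.55 and 9.34. Over all members it was 43.9%, beside 44.5% at first promoters and 41.3% over all peaks. The word CACAGTG was picked from a scan of 6- and 7-base words in these same summits, so its values describe and do not test. It stood at 17 of the 100 strongest members (exact 95% interval 10.2% to 25.8%), at 10.7% of the next 150 and at 3.19% of the rest. In flanks 500 bp away the shares were 3%, 2.67% and 3.19%. Over all peaks it stood at 6.72%, beside 8.18% of members. The share with GAGA did not follow the signal, at 15%, 20.7% and 17.9%.

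Over all genes, clusters of internal start sites had a summit somewhat more often than first ones. Among genes with an internal start site, about as many had a summit at any internal start site as at a first one. Of 2707 clusters of internal start sites, 481 had a summit (17.8%, exact 95% interval 16.3 to 19.3), beside 12.6% of 10020 first clusters, 15.0% of 5615 divergent clusters and 14.1% of all 18342. In the replicate lists the share was 18.6%, 16.9% and 17.3% for internal and 15.2%, 11.7% and 11.6% for first clusters. All 3 internal shares lay above all 3 first shares (mean difference 4.78 ± 1.18 points, SD, n = 3, exact sign-flip test, p = 0.25, the smallest possible). In replicate 1 the divergent share of 20.0% was higher still. The first clusters come from all genes, whereas internal ones exist only in genes with several start sites. Of the 1636 genes with an eligible internal start site, 402 (24.6%) had an internal summit and 408 (24.9%) had one at a first start site, divergent ones included. These shares are per gene and not per start site, since the same genes held 2707 internal clusters and 594 of the genes had at least 2. Genes with a single internal cluster had a summit there at 14.6%. With a 250 bp promoter window the mean difference between clusters was 1.48 points, and with the 3313 strongest regions of each replicate it was 2.67 points.

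Within genes the upstream internal start sites had summits more often. In the 594 genes with at least 2 internal clusters, 24.2% of the most upstream clusters, 20.8% of those between and 14.5% of the most downstream had a summit. Genes with a single internal cluster had one at 14.6%. The replicate lists gave 25.6%, 22.7% and 24.1% for the most upstream and 15.0%, 14.8% and 14.6% for the most downstream cluster, a mean difference of 9.32 ± 1.35 points (SD, n = 3, exact sign-flip test, p = 0.25). Of these genes, 344 had no internal cluster with a summit, 187 had 1, 63 had more, and in 19 every internal cluster had a summit. This comparison was chosen after values were seen.

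Most genes with an internal summit had none at their 5'-most start sites. Such a summit, within 500 bp of a start site less than 1000 bp from the 5'-most one, was present in 126 of 402 genes (31.3%, exact 95% interval 26.8 to 36.1). Among the 1234 other genes with an eligible internal start site it was present in 22.9%. The replicate lists gave 37.9%, 29.5% and 27.1% for genes with an internal summit and 27.6%, 20.4% and 19.9% for the others (mean difference 8.84 points, exact sign-flip test over 3 replicates, p = 0.25). Where a gene had both, the internal summit was the stronger in 70 of 126, with median signals of 313 for the internal and 325 for the first summit.

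Gene lists were read against the 24.6% of 1636 genes with an eligible internal start site that had a member, and against the 17.8% of internal clusters with a summit. The cluster intervals treat clusters as independent, although 1 gene can hold several. They may therefore be too narrow, and they describe the lists and do not test them. Genes of the cascade set off by ecdysone, the steroid hormone of metamorphosis, stood highest, with 13 of 17 genes and 18 of 36 clusters (50%, exact 95% interval 32.9 to 67.1). In the replicate lists the share of their clusters was lower, at 30.6%, 38.9% and 27.8% (32.4% ± 5.78, SD, n = 3), still above the 16.9% to 18.6% of all internal clusters. These summits were weak, with a median of 243 for the best summit of each gene, and the best summit was found in all 3 replicates in only 3 of the 13 genes. Those were Eip93F (1153), a factor that directs late metamorphic programmes, ImpL2 (1003), a secreted binder of insulin-like peptides, and Eip75B (621). The fourth by signal was tai (302), a coactivator of the ecdysone receptor, found in replicates 1 and 2.

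Developmental and signal-responsive transcription factors had members in 21 of 46 genes and summits at 27.8% of 97 clusters. Replicates gave 38.1%, 29.9% and 29.9%. Behind NFAT came bun (1107), a TSC22 family gene, jing (732) and the Dpp pathway factor shn (653), and the best summit was found in all 3 replicates for 16 of the 21. Protein kinases and phosphatases had members in 24 of 49 genes and summits at 26.7% of 105 clusters (24.1% ± 1.45 over replicates). After gish, sgg and puc stood Btk (992), a Tec family tyrosine kinase. Small GTPases and their regulators had members in 12 of 32 genes and summits at 25% of 64 clusters. The strongest were RapGAP1 (1083), not found in replicate 1, the endosomal GTPase Rab5 (952), the cAMP-responsive exchange factor Epac (511) and sky (459).

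Chromatin regulators had members in 6 of 17 genes and summits at 7 of 28 clusters (25%, exact 95% interval 10.7 to 44.9). Behind ph-p came psq (1179), whose product binds GAGA sequences, and Trl (532), which encodes the GAGA factor. The summit of signal 1179 at psq lay 96 bp downstream of its start site and the strongest at Trl 129 bp downstream, and only that of psq held a GAGA word within 100 bp. At lolal, which encodes a BTB partner of the GAGA factor, the summit (391) was found in replicate 3 only.

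In 4 other lists the interval of the cluster share held the 17.8% of all internal clusters, as it did for small GTPases and for chromatin regulators. As above, these intervals describe and do not test. Actin, myosin and microtubule genes had members in 17 of 46 genes (37.0%, exact 95% interval 23.2 to 52.5) and summits at 18.9% of 95 clusters, with Fhos, the pointed-end capping gene tmod (809), Msp300 (638) and Fim (524) the strongest. RNA-binding and translation regulators had members in 14 of 36 genes (38.9%, interval 23.1 to 56.5) and summits at 17.5% of 80 clusters, with larp, Syp (1037), the poly(A)-binding protein gene pAbp (847) and the splicing factor mbl (549). Metabolic enzymes and transporters had members in 11 of 40 genes and summits at 20.9% of 67 clusters, led by Lpin, the glycolytic enolase gene Eno (1154), the trehalase gene Treh (688) and Sam-S (629). Receptors, adhesion and matrix genes had members in 7 of 34 genes and summits at 18.2% of 44 clusters, led by the teneurin Ten-a (470), the insulin receptor InR (405), unc-5 (303) and the Wingless receptor fz2 (237). Ion channel and synaptic genes stood lowest, with summits at 4 of 58 clusters (6.90%, exact 95% interval 1.91 to 16.7, and 5.75% ± 0.995 over replicates). The cluster interval lay below 17.8%. By gene, 3 of 28 had a member (10.7%, interval 2.27 to 28.2), and that interval held the 24.6% of all eligible genes. The 3 genes were Trpm (453), dlg1 (266) and Irk1 (262).

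**Figure D5:**
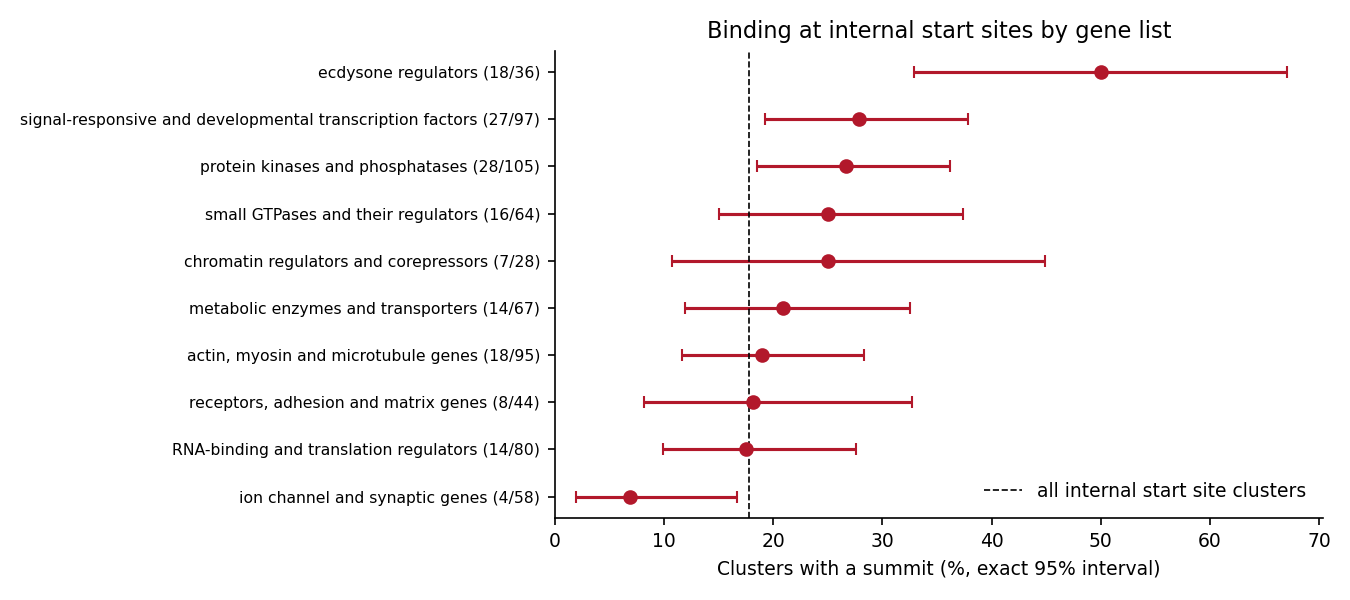
Percentage of internal start site clusters with a summit in each gene list (points, with exact 95% binomial intervals as bars) and in all internal clusters (dashed line, 17.8%). Numbers in brackets are clusters with a summit and all clusters; ecdysone regulators lie at 50% and ion channel and synaptic genes at 6.90%.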

How the data were processed

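ChIP-seq peak lists of 3 biological replicates were used. Per the notes deposited with each library, the authors called regions on dm6 from each alignment and 1 control alignment shared by all, gave a relaxed list of 30000 regions per replicate and for the pool, and derived the thresholded list of 6626 peaks. Peak caller, version and threshold on the irreproducible discovery rate are not given in the sources used here. As deposited, the signal is the caller's score, on a scale that differs between lists. The deposited −log10 q values were capped and not used. The deposited lists hold no read counts, so library depth is unknown, and intervals cover counting error only. The summit came from the deposited offset from each region's start.

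Start sites of 13968 protein-coding genes (19630 start sites) came from Ensembl release 115 (BDGP 6.54), and sequences from the release 6 RefSeq genome (members on arm 2R entered the base composition and word counts, but none of their sequences is printed). All regions lay within the arms of that genome. The 6626 strongest regions of each replicate served as its list. Python 3.11.15, numpy 2.4.6, pandas 2.3.3, scipy 1.17.1 and matplotlib 3.10.9 were used. Classes were compared within each replicate with an exact two-sided sign-flip test, whose smallest p with 3 replicates is 0.25, so no difference could pass 0.05. Summits and genes are not replicates, and no test was made over them. The steps were checked on simulated data.

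The members, the 10 gene lists and the 12 words were chosen with earlier results of these data known. Of 942 names in the lists 61 matched no gene, and some genes stand in more than 1 list. Named genes were those of the 25 strongest members found in all 3 replicates, up to 4 of highest signal per list, genes with 3 or more members and those nearest to each limit. Summit position, the comparisons of GAGA, DRE and Motif 1 by replicate, cluster order within a gene, genes with and without first summits, groups by strength and CACAGTG were added after values were seen. Alternatives changed the promoter window, both distances of the rule, the distance for a found summit, the number of peaks or regions, the motif window and the replicates.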

Additional observations from a re-analysis of the deposited data

Results flagged for a closer look

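The relaxed list of the pooled replicates, which the comparisons above do not use, held 1445 internal promoter summits in 806 genes. Of these, 944 had a signal below the lowest of the thresholded peaks, and so lie in data outside the main measurement. A list of this length takes in regions that the authors' threshold left out, and no control list was analysed here, so these summits are given as a count only.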

How the results depend on the processing

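No paired analysis was possible between groups because all libraries belong to 1 group, and classes were compared within each replicate. Of 132 recomputed values of the main results, 113 were labelled as on the same side or within their error. This count overstates stability. It takes in the setting for transcripts of protein-coding biotype, which could change nothing. The number of members, which has no side or error, also carries the label at 340 (250 bp promoter window) and 688 (1000 bp), beside 501. Internal clusters had a summit more often than the first clusters of all genes in every setting run. The position of the summits and the GAGA, DRE and Motif 1 differences also kept their direction. The sizes changed with the setting. The cluster difference of 4.78 points was 1.48 with a 250 bp promoter window and 2.67 with the 3313 strongest regions per replicate. The position difference was −41.2 bp with a 250 bp promoter window. The GAGA difference was 4.93 points with words searched within 50 bp of the summit and 16.9 points within 200 bp, and for DRE it was −1.96 and −5.68 and for Motif 1 −2.18 and −5.38 points. With 1 replicate left out, the position difference ranged from −96.8 to −70.5 bp, the GAGA difference from 7.26 to 10.2 points and the internal share of promoter summits from 17.5% to 19.6%. That share was 15.0% with a 250 bp window, 21.6% when 500 bp from the 5'-most start site was enough and 14.6% with 2000 bp, since these settings redefine the class. The 3313 strongest peaks held 271 members, 82.3% of them found in all 3 replicates. That share was 40.9% when summits had to lie within 50 bp and 58.7% within 200 bp. Genes with a summit at both kinds of start site made up 25.9% with a 250 bp window, 40.3% with 1000 bp and 15.3% in the 3313 strongest peaks. The difference in median signal percentile, −0.0217, changed sign to 0.0289 (window 1000 bp), 0.288 (500 bp from the 5'-most start), 0.0867 (2000 bp), 0.198 (3313 strongest peaks), 0.0494 (1 summit per interval) and 0.269 (found within 50 bp), and ranged from −0.451 to 0.213 with 1 replicate left out (0.173 without replicate 1, 0.213 without replicate 3). The difference in share found from divergent promoters ranged from −1.17 (without replicate 3) to 9.11. The causes were not tested. Restricting start sites to transcripts of protein-coding biotype changed nothing, because all 30773 transcripts have it. Of 24 motif shares of members in other windows, 16 moved beyond their interval. Unknown depth limits what a summit missing from a replicate shows.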
